A study of Mus musculus with 6 samples.

Results

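The enteric alpha-defensin genes Defa2, Defa3, Defa5, Defa17, Defa20, Defa23, Defa24 and Defa26 were followed in small intestinal adenomas. They were selected by gene symbol, 8 of the 48440 genes in the expression tables, and leave out Defa21 and Defa22. They include Defa24 and Defa17, which averaged 2754.7 and 1002.3 FPKM over all libraries, but are not the 8 most abundant of the family. Gm15284 (Defa30) averaged 986.2 FPKM and Defa-rs7 (Defa31) 612.9 FPKM, both above the 541.6 FPKM of Defa23. RNA was sequenced in 3 libraries of ApcMin adenomas (QC4, QC5 and QC6) and 3 libraries of ApcMin PCdel adenomas (QC3, QC8 and QC10). Nothing in the labels or methods says whether the libraries of a genotype came from separate mice. All mice carried the ApcMin allele and 1 Rosa26 iDTA allele, which encodes the diphtheria toxin alpha subunit behind a stop cassette, on a C57BL/6 background, and were older than 42 days. The ApcMin PCdel mice also carried Defa4-Cre, an IRES-Cre knock-in at the Defa4 locus made in 129/svJ stem cells, so that toxin was made in cells of the Paneth cell lineage. The ApcMin mice were littermates without Cre. The Cre allele lies in the same gene cluster as the 8 genes and was present in every PCdel mouse and in no control. Whether 129/svJ sequence beside it remained after backcrossing to C57BL/6 is not given. An effect of the allele or of such sequence on the 8 genes and an effect of the toxin therefore cannot be told apart. Defa4 itself was not analysed here. These were bulk tissue samples, in which fewer Paneth cells and less defensin RNA per cell cannot be told apart either.

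Alpha-defensins are small cationic antimicrobial peptides. In the mouse small intestine, where they are also called cryptdins, they are made by Paneth cells at the crypt base as longer precursors, are cut to their active form by the metalloproteinase matrilysin (Mmp7), and are released from granules into the crypt lumen. The active peptide carries a conserved set of cysteines paired in disulfide bonds. The genes arose by repeated duplication and lie side by side on chromosome 8, so many of them are close copies of each other.

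How close these copies are decides how far reads of 1 gene can be told from those of another, and so the coding ends are shown. All 8 genes have 2 exons in GENCODE vM21 (GRCm38). The stretch below runs from coding base 181 to the last base before the stop codon, lies in the last exon of each gene and is read on the + strand, with the in-frame cysteine codons (TGC or TGT) in capitals.
Defa24, chr8:21735276-21735374: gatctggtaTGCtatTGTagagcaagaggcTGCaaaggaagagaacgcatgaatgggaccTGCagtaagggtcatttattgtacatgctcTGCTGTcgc
Defa17, chr8:21656540-21656638: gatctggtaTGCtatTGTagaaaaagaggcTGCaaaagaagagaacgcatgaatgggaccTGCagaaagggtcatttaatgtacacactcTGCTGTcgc
Defa23, chr8:21055820-21055918: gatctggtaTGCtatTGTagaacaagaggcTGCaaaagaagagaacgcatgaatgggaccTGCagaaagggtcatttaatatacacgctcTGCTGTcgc
Defa26, chr8:21618781-21618879: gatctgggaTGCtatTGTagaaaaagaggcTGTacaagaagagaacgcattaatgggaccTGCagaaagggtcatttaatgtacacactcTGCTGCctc
Defa5, chr8:21298180-21298278: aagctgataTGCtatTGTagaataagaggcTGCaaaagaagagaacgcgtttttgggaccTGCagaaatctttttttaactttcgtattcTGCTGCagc
Defa2, chr8:21379295-21379399: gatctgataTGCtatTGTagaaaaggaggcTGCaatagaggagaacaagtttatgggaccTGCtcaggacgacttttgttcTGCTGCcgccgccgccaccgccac
Defa21, chr8:21026322-21026420: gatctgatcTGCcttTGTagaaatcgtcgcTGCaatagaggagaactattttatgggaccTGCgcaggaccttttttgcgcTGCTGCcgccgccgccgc

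Each stretch held 6 cysteine codons. The stretch of Defa17 is also that of Defa3 (chr8:21288182-21288280), and the whole coding sequences of the pair, 279 bases each, were identical. The stretch of Defa2 is also that of Defa20 (chr8:21510036-21510140), and their coding sequences of 285 bases differed at 1 base. Defa23 differed from Defa17 at 6 of 279 coding bases, Defa24 at 12 and Defa26 at 20. Defa5 stood further off, with 41 differing bases. Defa2 was 81.8% identical to Defa17 over aligned coding bases and 89.5% identical to Defa21. By coding sequence, Defa24, Defa17, Defa3, Defa23 and Defa26 therefore formed a close group, Defa2 and Defa20 a pair nearer to Defa21 and Defa22, and Defa5 was apart from both.

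Shared sequence was also counted over whole transcripts, as the percent of a gene's 31-base words (31-mers) that another gene's transcripts hold. Defa3 shared 89.2% of its 31-mers with Defa17, and Defa2 shared 91.7% with Defa20. Defa23 shared 48.9% or less with every other of the 8 genes, but 91.1% with Defa-rs7 (Defa31 in GENCODE vM21), and Defa5 shared 81.8% with Gm15315 (Defa34). No 31-mer of Defa2, Defa20 or Defa23 was free of a match in another gene, against 0.3% for Defa5, 6.8% for Defa17, 7.4% for Defa3, 31.9% for Defa26 and 42.9% for Defa24. The FPKM of Defa24 and Defa26 can thus rest in part on 31-mers of their own. Those of the other 6 may depend largely or wholly on how the authors' program divided shared reads, which is not given in the sources used here. A read longer than 31 bases can span 31-mers shared with different genes and still match only its own gene. Read length was not considered, so the size of this dependence was not tested.

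**Figure D1:**
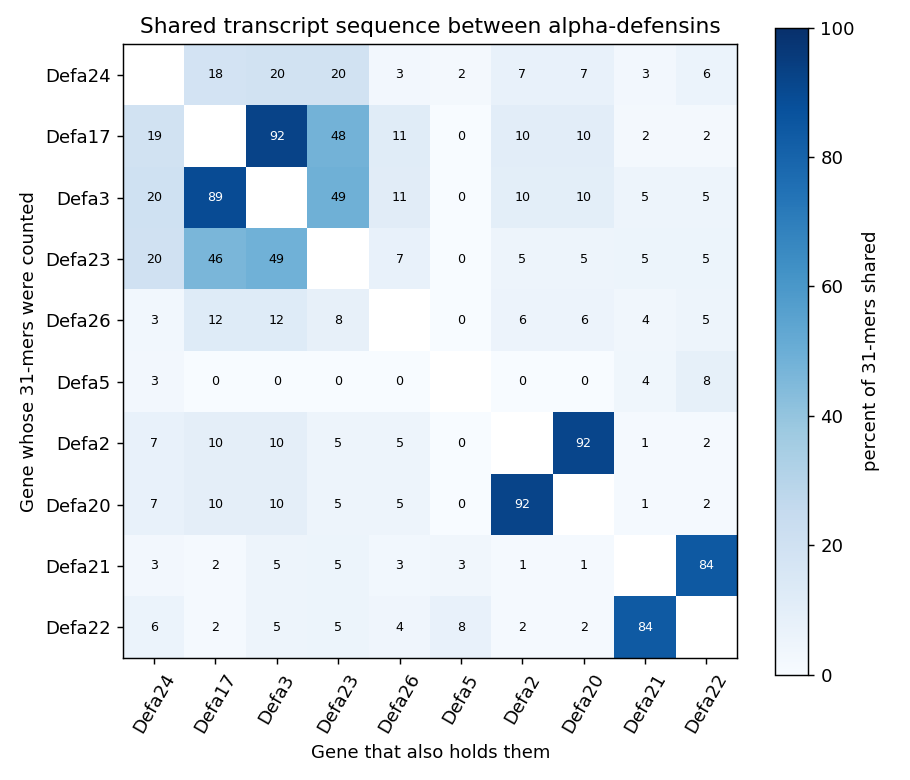
Percent of the 31-mers of the gene in each row that also occur in transcripts of the gene in each column, for the 8 alpha-defensins and for Defa21 and Defa22. Dark cells mark the near copies, such as Defa17 with Defa3 (92.4% of the 31-mers of Defa17) and Defa2 with Defa20 (91.7%); the Defa5 row is pale throughout, at 8.4% or less.

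A promoter window of RefSeq (GRCm38, 250 bases before to 50 after the start) matched 3 of the 8 genes, Defa2, Defa20 and Defa23. The 120 bases before the start are shown because Defa20 had one of the lowest and Defa23 the highest PCdel mean as a percent of the ApcMin mean. Capitals mark ATCAAAG, the reverse complement of the TCF/LEF word CTTTGAT, and TATAAA, the TATA box word.
Defa20, chr8:21509138-21509257, + strand: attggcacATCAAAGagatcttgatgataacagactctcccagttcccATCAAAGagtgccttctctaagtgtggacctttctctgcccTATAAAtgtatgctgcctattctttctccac
Defa23, chr8:21054920-21055039, + strand: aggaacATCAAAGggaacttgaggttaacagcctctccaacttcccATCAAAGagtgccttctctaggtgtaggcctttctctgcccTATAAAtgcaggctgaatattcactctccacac

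TCF/LEF factors are the DNA-binding partners of beta-catenin in the Wnt pathway. The window of Defa2 was identical to that of Defa20 over all 300 bases, and differed from that of Defa21 at 7 bases. That of Defa23 was 81.2% identical to that of Defa2. All 3 windows held CTTTGAT at 2 places and TATAAA at 1 place, and so did those of Defa21 and Defa22. Of 32817 mouse promoter windows of this length, 3.7% held CTTTGAT and 13.6% held TATAAA on either strand. Neither the TCF/LEF word CTTTGAA (5.1% of all windows) nor the E-box word CAGCTG (16.3%) was found in the 3 windows. These words are a description of sequence. They did not differ between Defa2, Defa20 and Defa23, whose levels are given below.

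Between the genotypes, all 8 genes had a lower mean in PCdel adenomas, where 36.9% of the 14240 tested genes did on the log2(FPKM + 1) scale, the scale of all counts of lower genes here. Given as a percent of the ApcMin mean, the PCdel means lay in a higher and a lower range. Those of Defa24, Defa17, Defa3 and Defa23 were between 47.0% and 48.4%, while that of Defa5 was 23.7%, that of Defa20 19.2%, that of Defa2 17.4% and that of Defa26 16.8%. These ranges rested on ApcMin library QC6. Without it the percentages were 106.6% for Defa23, 64.3% to 65.4% for Defa3, Defa17 and Defa24, 44.4% for Defa26, 32.8% for Defa5, 16.8% for Defa20 and 15.3% for Defa2. Only Defa2 and Defa20 then stayed below 20%, but their highest ApcMin library was QC5 and not QC6. Without QC5 the log2 differences of Defa2 and Defa20 were -1.91 and -1.77, against -2.38 and -2.24 with all libraries. For 4 of the 8 genes (Defa2, Defa20, Defa5 and Defa26) every PCdel library lay below every ApcMin library, where 1.54% of all tested genes did so. None of the 8 passed limma's test at a Benjamini-Hochberg adjusted p of 0.05, where 0.014% of all tested genes passed in either direction and 0.00702% in the lower direction. At an unadjusted p under 0.05, limma counted 6 of the 8 as lower, against 0.681% of all tested genes. The median log2 difference of FPKM + 1 (PCdel minus ApcMin) was -1.44 over the 8 genes (-0.85 without QC6) and 0.04 over all genes tested. The p-values measure only the spread between these libraries, which may be technical, and 3 against 3 allows no exact two-sided permutation p below 0.1. FPKM is scaled for transcript length, so levels of different genes can be set side by side. For near copies, such as Defa17 with Defa3, these levels may also depend on how shared reads were divided, which is not given. Every library had more than 4 FPKM of each of the 8 genes, so none entered the fit through 1 group alone.

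**Figure D2:**
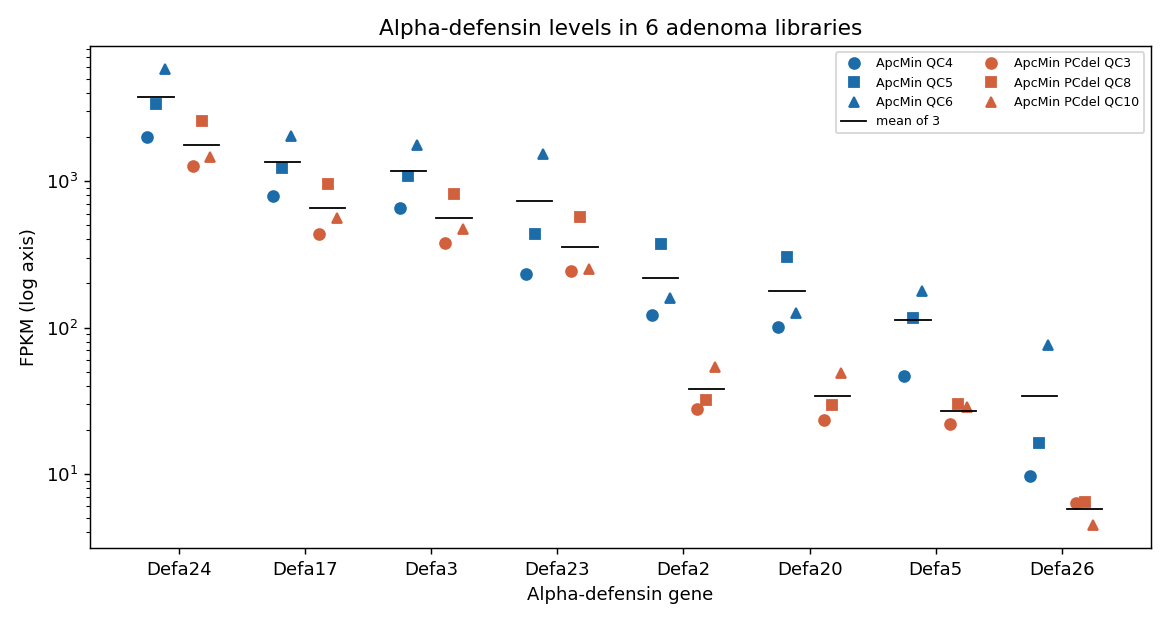
FPKM on a log axis of the 8 alpha-defensins, ordered by their mean, in the 3 ApcMin (blue) and 3 ApcMin PCdel (orange) libraries; bars are means of 3 libraries. For Defa24, Defa17, Defa3 and Defa23 the genotypes overlap, and for Defa2, Defa20, Defa5 and Defa26 every orange point lies below every blue one.

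Defa24 was the most abundant of the 8 in every library. It measured 2013.1, 3378.4 and 5850.2 FPKM in ApcMin libraries QC4, QC5 and QC6, and 1266.4, 2568.6 and 1451.5 FPKM in PCdel libraries QC3, QC8 and QC10. PCdel library QC8 lay above ApcMin library QC4, so the genotypes overlapped, although the means were 3747.3 ± 1944.9 and 1762.2 ± 704.5 FPKM (SD, n = 3 each). The log2 difference was -1.02 with a standard error of 0.44 (limma adjusted p = 1.0; exact two-sided permutation test, p = 0.2), and -0.64 without QC6.

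Defa17, whose coding sequence is the same as that of Defa3, measured 789.2, 1237.6 and 2028.7 FPKM in the ApcMin libraries and 438.4, 962.0 and 557.8 FPKM in the PCdel libraries. Defa3 measured 657.0, 1080.3 and 1772.5 FPKM, and 379.9, 820.4 and 474.4 FPKM, in the same order. Both repeated the order of Defa24, with QC6 the highest ApcMin library, QC8 the highest PCdel library and QC8 above QC4. Their log2 differences were -1.02 (standard error 0.41) and -1.03 (standard error 0.42), each with a limma adjusted p of 1.0 and an exact two-sided permutation p of 0.2. Without QC6 they were -0.68 and -0.67.

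Of these 4 genes, Defa23 had the widest spread among the ApcMin libraries. It measured 230.3, 432.6 and 1527.0 FPKM in QC4, QC5 and QC6, and 241.8, 566.4 and 251.6 FPKM in QC3, QC8 and QC10. ApcMin library QC4 was below all PCdel libraries, and QC6 was 6.63 times as high as QC4. The log2 difference of -0.71 (standard error 0.70; limma adjusted p = 1.0; exact two-sided permutation test, p = 0.7) was about as large as its standard error. Without QC6 it turned to 0.04. Thus the lower mean of Defa23 rested on 1 library.

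QC6 also stood apart in other genes. The summed FPKM of 7 enterocyte markers was 24626.7 in QC6 and between 8961.7 and 14680.7 in the other libraries, and the median log2 ratio of its genes to the mean of all libraries was -0.13, against 0.00 to 0.03 for the others. The part of either in the defensin values was not tested.

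Defa2, the first of the near-identical pair, measured 121.6, 373.2 and 159.3 FPKM in QC4, QC5 and QC6, and 27.6, 32.2 and 54.0 FPKM in QC3, QC8 and QC10. All PCdel libraries lay below all ApcMin libraries. The means were 218.0 ± 135.7 and 37.9 ± 14.1 FPKM (SD, n = 3 each), and the log2 difference was -2.38 with a standard error of 0.44 (limma adjusted p = 0.979; exact two-sided permutation test, p = 0.1).

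Defa20 measured 100.8, 304.8 and 125.7 FPKM in the ApcMin libraries and 23.2, 29.6 and 49.2 FPKM in the PCdel libraries, with a log2 difference of -2.24 (standard error 0.45; limma adjusted p = 0.979; exact two-sided permutation test, p = 0.1). The pair ordered the libraries in their own way. Their highest ApcMin library was QC5 and their highest PCdel library QC10, while the other 6 genes were highest in QC6 and QC8. Without QC5 the log2 difference was -1.91 for Defa2 and -1.77 for Defa20. QC4 was the lowest ApcMin library for all 8.

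Defa5 measured 46.6, 116.9 and 176.5 FPKM in QC4, QC5 and QC6, and 21.9, 29.8 and 28.7 FPKM in QC3, QC8 and QC10. Its PCdel libraries were close together, with the highest 1.36 times the lowest, against 3.79 times among the ApcMin libraries. The groups did not overlap, and the log2 difference was -1.86 (standard error 0.46; limma adjusted p = 1.0; exact two-sided permutation test, p = 0.1).

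Defa26 was the least abundant of the 8 in every library. It measured 9.62, 16.2 and 76.4 FPKM in the ApcMin libraries and 6.29, 6.44 and 4.45 FPKM in the PCdel libraries. The groups did not overlap, but QC6 was 7.94 times as high as QC4, and QC4 and QC5 were nearer to the PCdel libraries than to QC6. The log2 difference was -1.86 (standard error 0.68; limma adjusted p = 1.0; exact two-sided permutation test, p = 0.1), and -1.02 without QC6.

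For comparison, Defa21 and Defa22 had PCdel means of 11.6% and 13.5% of their ApcMin means, with log2 differences of -2.98 and -2.77 (limma adjusted p = 0.309 for both). Both percentages were below those of all 8 genes.

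The count of genes whose groups did not overlap depended on 2 libraries. It was 4 with all 6 libraries, 7 without ApcMin library QC4, the lowest control, and 7 without PCdel library QC8. Of all tested genes, 3.43% did not overlap and were lower without QC4, and 3.36% without QC8, against 1.54% with all libraries. In both cases the gene that still overlapped was Defa23.

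Added together, the 8 genes reached 3968.3, 6940.0 and 11716.3 FPKM in QC4, QC5 and QC6, and 2405.5, 5015.4 and 2871.6 FPKM in QC3, QC8 and QC10. That was between 0.695% and 1.94% of all FPKM of an ApcMin library and between 0.424% and 0.913% of a PCdel library. The PCdel mean was 45.5% of the ApcMin mean and the log2 difference was -1.07, but QC8 lay above QC4, so that the genotypes overlapped (p = 0.2 by exact two-sided permutation). Without QC6 the percentage was 62.9% and the log2 difference -0.69. The sum had to follow Defa24, Defa17, Defa3 and Defa23, which made up 88.31% to 98.05% of it in every library.

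The makeup of that sum showed how unevenly the genes differed within a library, a measure that does not depend on library size. Defa24 made up between 48.7% and 52.6% of the sum in every library, with means of 49.8% in ApcMin and 51.5% in PCdel adenomas (exact two-sided permutation test, p = 0.2). Defa17 accounted for 18.4% and 18.9% (p = 0.6) and Defa3 for 15.8% and 16.2% (p = 0.4, both exact permutation tests). These 3 shares were nearly the same in both genotypes. Defa23 accounted for 5.81% and 6.23% in QC4 and QC5, 13.0% in QC6, and 8.76% to 11.3% in the PCdel libraries.

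The 4 less abundant genes together made up 7.02%, 11.7% and 4.59% of the sum in QC4, QC5 and QC6, and 3.29%, 1.95% and 4.75% in QC3, QC8 and QC10. PCdel library QC10 was slightly above ApcMin library QC6, so this share overlapped. With all libraries, the share of Defa5 alone separated the genotypes among the 8 genes. It was 1.18%, 1.69% and 1.51% in the ApcMin libraries and 0.912%, 0.595% and 0.998% in the PCdel libraries (exact two-sided permutation test, p = 0.1). Relative to the same sum, 13.7% of all tested genes did not overlap between genotypes, so 1 of 8 was near that background. The share of Defa2 averaged 3.27% in ApcMin and 1.22% in PCdel adenomas and that of Defa20 2.67% and 1.09%, with overlap in both. Defa26 averaged 0.376% and 0.182%, also with overlap. The number of shares that did not overlap was 4 without QC6, 4 without QC4, 4 without QC10 and 2 without QC3, where 14.2%, 91.4%, 14.6% and 14.2% of all tested genes did not overlap relative to the same sum. Without QC6 the 4 were Defa2 (PCdel minus ApcMin, -2.997 percentage points), Defa20 (-2.38 points), Defa5 (-0.595 points) and Defa23 (4.02 points). Without QC5 the differences of Defa2 and Defa20 were -0.989 and -0.716 points, both with overlap.

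Ranked by FPKM within a library, the genes kept nearly the same order in all 6. Defa24, Defa17, Defa3 and Defa23 were the first 4 and Defa26 was the last in every library. Defa2, Defa20 and Defa5 took ranks 5 to 7 in that order in 4 libraries. In ApcMin library QC6 Defa5 came before Defa2 and Defa20, and in PCdel library QC8 it came between them. Neighbours in the order were separated by unequal steps. Defa24 was 2.55 to 2.89 times Defa17, Defa17 was 1.15 to 1.20 times Defa3, and Defa3 was 1.16 to 2.85 times Defa23. Defa23 was 1.16 to 17.6 times Defa2, the widest range of any neighbouring pair. Across libraries the values of every neighbouring pair overlapped, so the order held within libraries and not between them.

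Some of these ratios were almost constant. Defa17 was 0.346 to 0.392 times Defa24 and Defa3 was 0.300 to 0.327 times Defa24 over all 6 libraries, with mean ratios of 0.368 and 0.368 for Defa17 and of 0.316 and 0.315 for Defa3 in ApcMin and PCdel adenomas. Defa24 shares 18.3% of its 31-mers with Defa17 and 19.5% with Defa3, and the part of shared reads in these ratios was not tested. In contrast, Defa2 was 0.027 to 0.111 times Defa24 in ApcMin libraries and 0.013 to 0.037 times in PCdel libraries. Defa5 was 0.023 to 0.035 times Defa24 in ApcMin libraries and 0.012 to 0.020 times in PCdel libraries, without overlap (exact two-sided permutation test, p = 0.1).

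**Figure D3:**
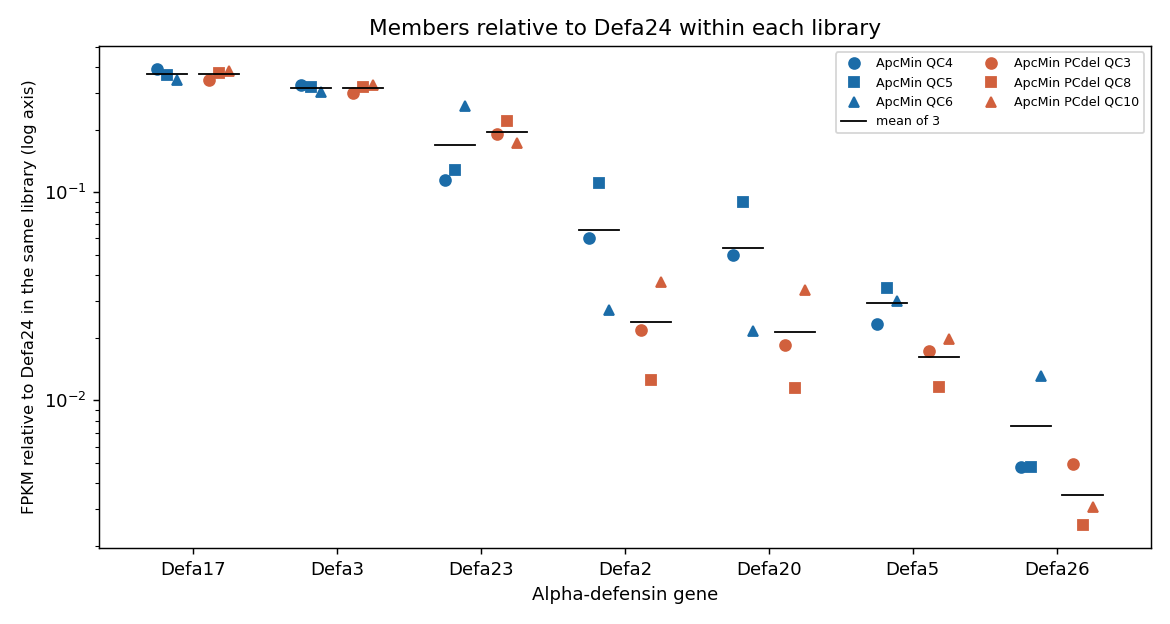
FPKM of 7 alpha-defensins divided by that of Defa24 in the same library, on a log axis, for the 3 ApcMin (blue) and 3 ApcMin PCdel (orange) libraries; bars are means. Defa17 and Defa3 stay level (0.346 to 0.392 and 0.300 to 0.327), Defa5 is lower in all PCdel libraries, and for Defa2 and Defa20 the lowest blue point, QC6, lies among the orange ones.

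Each gene was also set against the mean log2(FPKM + 1) of the other 7 in the same library. On this scale Defa24, Defa17 and Defa3 were higher in every PCdel library than in every ApcMin library, by 0.56 for each on average, and Defa5 was lower in every one, by 0.39 (exact two-sided permutation test, p = 0.1 for each). Defa2 (-0.99), Defa20 (-0.83), Defa23 (0.92) and Defa26 (-0.39) differed on average but overlapped, with exact two-sided permutation p from 0.3 to 0.7. These counts say little about the 8 genes, since 88.3% of all tested genes did not overlap when set against the mean of the 8, a mean that was itself lower in PCdel adenomas. Without QC6, 7 of the 8 did not overlap, among them Defa2 (-1.55), Defa20 (-1.41) and Defa23 (1.38), against 88.6% of all tested genes, and the difference of Defa26 turned to 0.17. Without QC5, Defa2 (-0.54) and Defa20 (-0.38) were nearer to the other genes and overlapped.

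Of the 28 pairs of the 8 genes, 5 had log2 ratios of FPKM + 1 that did not overlap between genotypes, where 7.99% of all pairs of tested genes did not overlap. They were Defa5 against Defa24, Defa17 and Defa3, Defa26 against Defa23, and Defa2 against Defa20. The latter 2 genes differed little, since Defa20 was 0.790 to 0.829 times Defa2 in ApcMin libraries and 0.841 to 0.919 times in PCdel libraries, and no 31-mer is particular to either. The smallest exact two-sided permutation p for a pair is 0.1, so no pair could pass 0.05. The pairs are also not independent, because near copies recur in them. Defa17 and Defa3 kept almost constant ratios to Defa24, so the pairs of Defa5 with these genes are nearly the same contrast. Counts of pairs, here and below, are therefore not counts of separate results.

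The contrast between the Defa2 pair and the abundant genes depended on single libraries. Over the 8 pairs of Defa2 or Defa20 with Defa24, Defa17, Defa3 or Defa23, the mean log2 ratio was lower in PCdel adenomas by between -1.67 and -1.21, and in none of the 8 were the groups apart. Without QC6, in which Defa2 and Defa20 were low relative to the others, all 8 were apart and the difference lay between -2.56 and -1.72. These pairs hold near copies, so the 8 are not separate results. Without QC5, the highest ApcMin library of Defa2 and Defa20, the contrast was smaller. The log2 differences of Defa2, Defa20 and Defa24 were then -1.91, -1.77 and -1.03, against -2.38, -2.24 and -1.02 with all libraries. The count over all 28 pairs was 21 without QC6, 5 without QC5, 8 without PCdel library QC3 and 12 without PCdel library QC10. In the same order, 23.5%, 14.0%, 17.4% and 21.0% of all pairs of tested genes did not overlap. With QC6 and QC8 both left out, the count was 21 against 35.9% of all pairs. In that case 7 of the 8 genes were lower without overlap, against 19.1% of all tested genes.

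Because reads of near copies can be divided in more than 1 way, FPKM were also summed over genes that hold at least 80% of a gene's 31-mers, a step added after the values were seen. Defa2, Defa20, Gm15308 (Defa32) and Gm21002 (Defa33) together measured 329.0, 1012.0 and 425.4 FPKM in the ApcMin libraries and 76.4, 94.2 and 160.7 FPKM in the PCdel libraries, 18.8% of the ApcMin mean. The groups did not overlap. Defa5 and Gm15315 together measured 131.1, 312.1 and 422.0 FPKM and 59.0, 91.1 and 84.8 FPKM, or 27.1%, also without overlap. Defa17 and Defa3 together were at 48.0% and Defa23 with Defa-rs7 at 47.6%, and both sums overlapped between genotypes. With all 6 libraries, the same genes lay in the higher and in the lower range whether copies were taken singly or together. This was largely fixed beforehand, since Defa24 and Defa26 had no near copy at this cutoff and Defa17 and Defa3 were alike singly. The step therefore does not test how reads were divided between the ranges. Set against the sum of Defa21 and Defa22 in the same library, Defa24, the sum of Defa17 and Defa3, and the sum of Defa23 and Defa-rs7 were each higher in every PCdel library than in every ApcMin library. The log2 ratio of Defa21 + Defa22 to these 3 was lower in PCdel adenomas by -1.89, -1.89 and -2.18 on average (exact two-sided permutation test, p = 0.1 for each). Against the Defa2 group (-0.60), the Defa5 group (-1.17) and Defa26 (-0.90) the groups overlapped, with exact two-sided permutation p of 0.3, 0.2 and 0.4. The contrast with Defa23 and Defa-rs7 separated narrowly, at -2.795 in ApcMin library QC6 and -2.826 in PCdel library QC3. Because the study had named Defa21 and Defa22 from these same data, their contrasts are not independent tests.

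**Figure D4:**
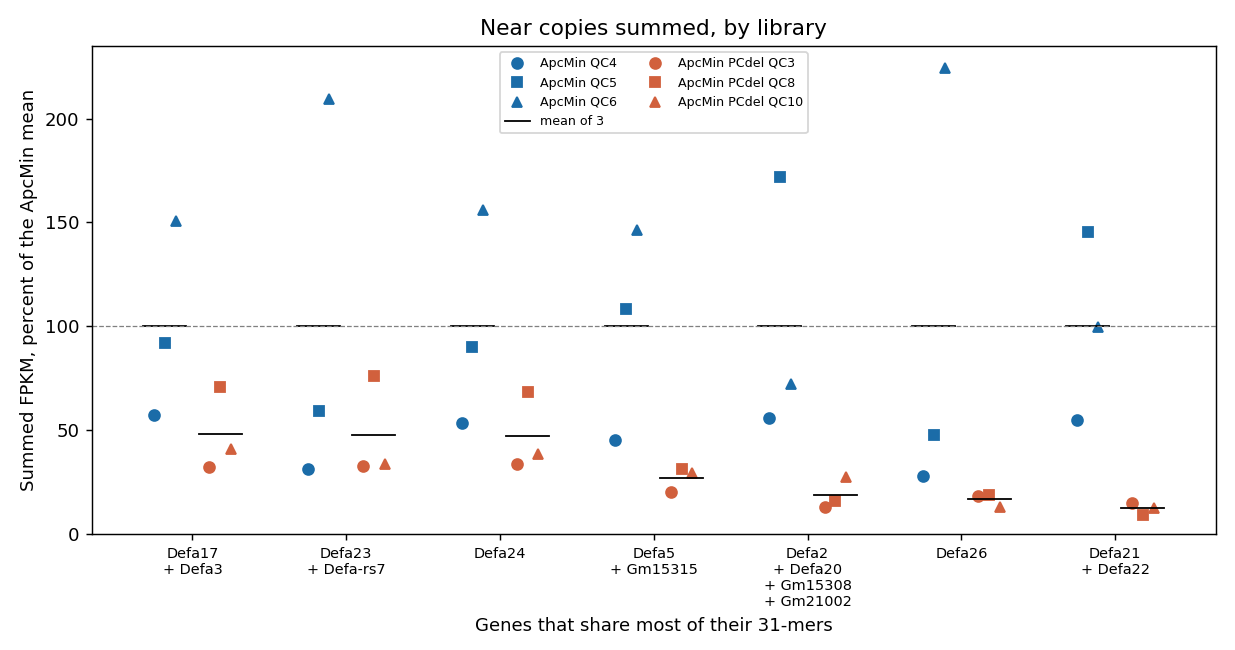
Summed FPKM of near copies in each library as a percent of their ApcMin mean (dashed line, 100), with means of 3 libraries as bars. The PCdel means of Defa17 + Defa3, Defa23 + Defa-rs7 and Defa24 are 48.0%, 47.6% and 47.0%, those of Defa5 + Gm15315, the Defa2 group and Defa26 are 27.1%, 18.8% and 16.8%, and that of Defa21 + Defa22 is 12.5%.

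The 8 genes lie within 709.9 kb on the + strand, from Defa21 to Defa24, where 29 genes were tested. Of these, 27 had a lower mean in PCdel adenomas and 15 did not overlap and were lower. Among the 21 that are not of the 8, 19 were lower, 11 did not overlap, and the median log2 difference was -1.64. Within this span, all 9 consecutive tested genes from Defa2 to Defa26 were lower without overlap, with log2 differences between -2.38 and -1.86, and they include 3 of the 8 genes, Defa2, Defa20 and Defa26. Of the 5 of the 8 outside that stretch, Defa5 alone did not overlap. Near neighbours could still differ. Defa3 and Defa5 start 261.9 and 271.9 kb from the start of Defa21 and differed by -1.03 and -1.86, and Defa26 and Defa17 start at 592.6 and 630.2 kb and differed by -1.86 and -1.02. Defa23, with the least negative value, is the nearest of the 8 to Defa21, with the most negative one.

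**Figure D5:**
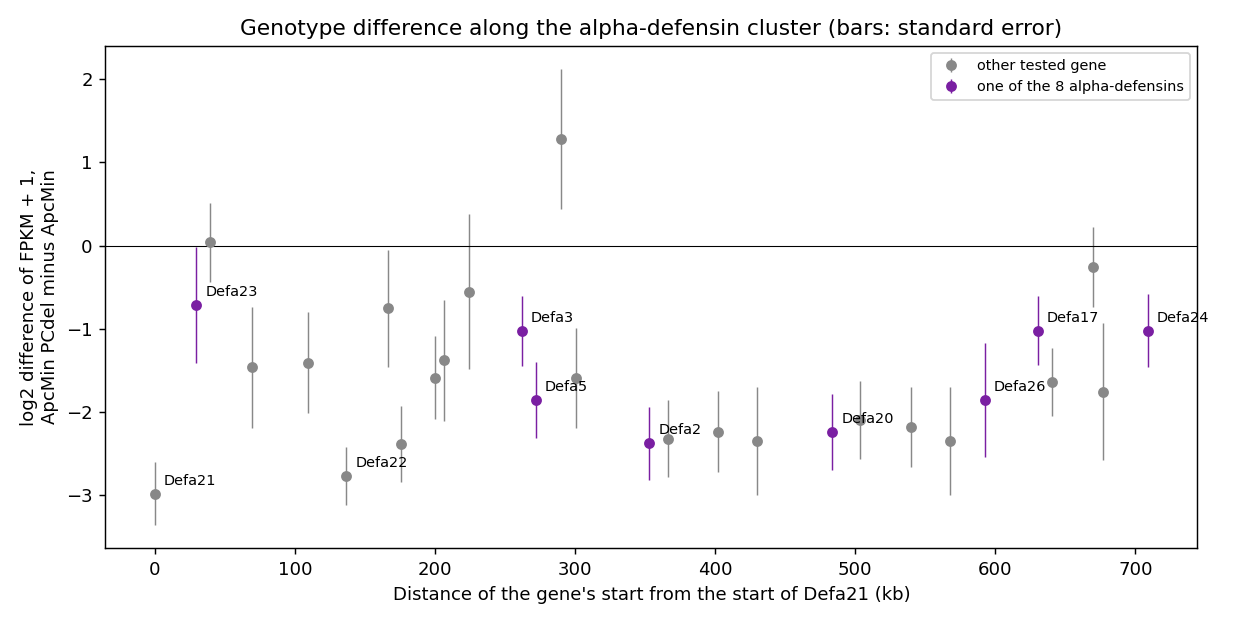
Log2 difference of FPKM + 1 (PCdel minus ApcMin) with its standard error for the 29 tested genes from Defa21 to Defa24, against the distance of each gene's start from that of Defa21. Purple points are the 8 alpha-defensins; neighbours such as Defa3 (-1.03) and Defa5 (-1.86) differ, and 27 of the 29 points lie below 0.

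Other genes of the family had values in the same span. Of 22 other genes with a Defa symbol in the files, 7 were tested and 11 were at 0 in every library. All 7 had a lower mean, none passed limma's adjusted threshold, 3 did not overlap, and the median log2 difference was -1.59, from Defa21 to Defa-ps1, a pseudogene (-0.26). Of 8 tested genes that now carry a Defa symbol, 6 were lower, none passed, 5 did not overlap, and the median was -1.87. Gm21002 (-2.32) and Gm21498 (-2.24) were lowest, and Gm10104 (0.04) and Gm15299 (1.28, overlapping groups) were highest.

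Products that Paneth cells store with the defensins were set beside them. Of 10 Paneth cell granule genes, 8 had a lower mean log2(FPKM + 1), none passed limma's adjusted threshold, 3 had an unadjusted p under 0.05 and 1 did not overlap, with a median log2 difference of -0.37. One of the 8, Ang4, had a slightly higher mean FPKM in PCdel adenomas (553.6 against 547.4). The summed FPKM of the 10 lay between 3474.6 and 5287.7 in ApcMin and between 2313.2 and 3877.5 in PCdel libraries. The PCdel mean of Mptx2, a pentraxin, was 47.8% of its ApcMin mean (log2 difference -1.04) and that of Lyz1, the Paneth cell lysozyme, 51.5% (-0.95), beside 47.0% to 48.4% for Defa24, Defa17, Defa3 and Defa23. Lyz1 was the 1 granule gene without overlap, while Mptx2 and these defensins overlapped. The defensin percentages rested on QC6 and ran from 64.3% to 106.6% without it. Those of Mptx2 and Lyz1 without QC6 are not given here. Mmp7, which cuts the alpha-defensin precursors, was at 82.3% (-0.22, limma adjusted p = 1.0). Pnliprp2, a lipase (0.05), and Habp2 (0.40) were the highest of the list. Of 10 tested genes for Paneth lineage regulators and secretion, 2 had a lower mean, none passed, and the median was 0.06. The lowest were Kcnn4, a potassium channel of granule release (-0.11), and Spdef, a secretory lineage factor (-0.10), and the highest were Bhlha15, a factor of secretory cells (0.12), and Sox9 (0.15).

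For markers of other cell types the medians lay closer to 0 than that of the 8 genes. The median log2 difference was 0.00 for 6 goblet, -0.04 for 4 enteroendocrine, 0.38 for 4 tuft, -0.39 for 7 enterocyte, -0.01 for 4 stem cell, 0.25 for 6 fibroblast and muscle and 0.16 for 6 leukocyte genes, and none of these genes passed limma's adjusted threshold. The summed enterocyte markers were highest in QC6, as given above, and their median difference without QC6 is not given here. The part of the enterocyte markers in the defensin values was not tested.

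Outside the 8 genes, the pattern most like their mean log2(FPKM + 1) over the 6 libraries was that of Gm15315, with a Pearson correlation of 0.995. Deb1 (Ss18l2 in current annotation, chromosome 9) followed at 0.993, then Gm14850 (Defa37) and Gm21498 (Defa36) at 0.989 each and Defa-ps6 at 0.980. These are descriptions of 6 points that share genotype and library, picked as the highest of all tested genes. All but Deb1 share 31-mers with one of the 8. Deb1 moved little, from 18.6 FPKM in QC3 to 24.6 FPKM in QC6, and its log2 difference was -0.21 (limma adjusted p = 1.0). Among genes without shared 31-mers, a choice made after the values were seen, Deb1 was followed by Igkv5-43, an immunoglobulin segment, at 0.970, then Lyz1 and Minos1 at 0.962 each and Hirip3 at 0.960.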

How the data were processed

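RNA of adenomas kept in RNAlater was prepared with the TruSeq RNA kit and sequenced on a HiSeq2500. Per the study's methods, reads were aligned and compared in CLC Genomics Workbench and values were then normalized in MatLab. That last step was not repeated, since its settings are not given in the sources used here. The authors deposited FPKM per gene and library, scaled for transcript length and library total, TPM, and an unscaled read coverage (signal). Read counts were not used, so no counting interval or floor is given. Whether that program made the deposited tables, and with which annotation, is not given in the sources used here. Gene positions matched GRCm38 (GENCODE vM21), except that Defa2 is listed as an earlier entry of 21378560 to 21379402.

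Coverage over FPKM gave 5.407 to 5.876 gigabases of aligned sequence per library, and the 10 most abundant genes took 11.4% to 14.3% of FPKM. The 14240 genes whose FPKM averaged 1 or more were fitted with limma 3.58.1 in R 4.3.3 (lmFit, eBayes with trend) on log2(FPKM + 1), which understates differences of low genes, with Benjamini-Hochberg adjustment over all of them and a threshold of 0.05. The fit was tested on simulated data. Single values were compared by exact two-sided permutation of the 6 libraries. Shared 31-mers were counted on both strands in GENCODE vM21 transcripts, and promoter windows came from RefSeq (GRCm38). Alternatives tried were the pseudocount set to 0.1, a mean of at least 5 FPKM or no minimum, quantile normalization, median centring, TPM, eBayes without trend and each library left out.

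All 8 genes, Defa21 and Defa22 are named, with the 2 lowest and 2 highest genes of lists that the report turns on, Lyz1, Mmp7, and the 5 genes most like the 8. The members and lists were chosen with earlier results of these data known.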

Additional observations from a re-analysis of the deposited data

How the results depend on the processing

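Under every alternative tried, limma passed 0 of the 8 genes, with adjusted p from 0.0952 (Defa5) to 1.0, and their median log2 difference stayed between -1.90 and -0.85. Between 7 and 8 had a lower mean. The summed FPKM differed by -1.47 to -0.69 on the log2 scale. Over the fits that each left out 1 library, the number of genes whose groups did not overlap ranged from 4 to 7, the number of pairs from 5 to 21, the difference of Defa23 from -1.32 to 0.044, and that of Defa26 relative to the other 7 genes from -0.77 to 0.17. The 2 positive values came without ApcMin library QC6, where Defa23 had a limma adjusted p of 0.99 (0.959 to 1.0 over all alternatives). The causes were not tested. Further alternatives were chosen after seeing the data. Leaving out QC6 and QC8 together gave 7 genes and 21 pairs without overlap, and summing near copies changed no direction. No paired analysis was possible because the replicate numbers of the genotypes are all different. Files without counts leave the precision of low values, such as those of Defa26, unknown.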

Other observations

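Gm15299 (Defa27 in GENCODE vM21) was the only gene of the 29 tested from Defa21 to Defa24, beside Gm10104 (0.04), without a lower mean log2(FPKM + 1) in PCdel adenomas. The mean FPKM of Gm10104 was slightly lower there (76.5 against 78.6). Gm15299 was listed at 0.167, 0.321 and 1.38 FPKM in QC4, QC5 and QC6, and at 3.43, 10.9 and 0 FPKM in QC3, QC8 and QC10. The groups overlapped and PCdel library QC10 was listed at 0 (limma log2 difference 1.28, adjusted p = 1.0).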
